A study of Homo sapiens with 6 samples.

Results

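Base excision repair removes small damaged or misplaced bases from DNA, and 10 of its genes were followed here in Het1A, an established human cell line of non-cancerous oesophageal lining that SV40 large T antigen keeps dividing. The genes were chosen by name from a deposited table of 58735 genes, and all 10 were found and all 10 passed the filter on low counts. They are the glycosylases OGG1, MUTYH, NTHL1, NEIL1 and UNG, the endonuclease APEX1, the break sensor PARP1, the scaffold XRCC1, the polymerase POLB and the ligase LIG3. RNA was sequenced from 3 control and 3 bile acid libraries, and the labels name no genetic change in either group. For the bile acid group, acidified medium of pH 4.0 was applied once daily for 10 min over 5 days. It carried a 100 µM cocktail of deoxycholic, glycochenodeoxycholic, glycodeoxycholic, taurocholic and glycocholic acid. Control cells had received 0.1% DMSO, and the labels do not say that their medium was acidified, so low pH and bile acids cannot be told apart. All cells were held in 1% serum from 48 h before treatment onward, and were harvested for RNA 24 h after the final treatment. The labels call the libraries biological replicates without saying how the cultures were separated, so p-values measure the spread between these libraries, which may be technical.

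In base excision repair a glycosylase cuts the damaged base off its sugar, APEX1 nicks the backbone at the empty site, POLB fills the gap and LIG3, held by XRCC1, seals it. PARP1 senses the nick and marks it with ADP-ribose chains that recruit XRCC1. The pathway is the main route for oxidised bases such as 8-oxoguanine, and exposure to acid and bile acids, as in reflux, is known to raise oxidative DNA damage in oesophageal cells.

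None of the 10 genes passed the threshold of a test adjusted over all genes. With the quasi-likelihood test of edgeR, 0 of the 10 genes passed an adjusted p of 0.05, the background being 0% of the 17743 genes tested. DESeq2 called 0 of the 10 genes against 0.118% of all genes, and the authors' deposited table likewise lists 0 of them as called, against 0.129% of its genes. At an unadjusted p under 0.05 MUTYH alone passed in edgeR, 1 of 10 genes where 3.31% of all genes did so. MUTYH, the glycosylase that removes adenine paired with 8-oxoguanine, was also the one gene of the 10 whose bile acid libraries all lay below all controls, which 4.89% of all genes did. No gene of the 10 lay wholly above the controls, as 5.29% of all genes did, and 10.2% separated in either direction. Of the 10 fold changes 5 were positive and 5 negative, with a median log2 fold change of −0.10 against −0.01 over all genes tested. In 8 of the 10 genes the log2 fold change lay within 0.5 of zero.

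Total counts were 21006677 to 26218597 in control libraries and 27008714 to 28497721 in bile acid libraries, and the 10 genes together took 0.0894% to 0.101% of them. The floor of 3 counts lay at 0.105 to 0.143 CPM (counts scaled to library size, with TMM factors for the values of single genes), far under every value of the 10 genes, and it covers counting error only. Control library 2 stood apart, at 145 on a first principal component where the other 5 libraries lay between −43.97 and −6.89, and 19101 genes were detected in it against 24174 to 25337. The keratins KRT8 and KRT18 were abundant in every library, while KRT5 and TP63, which define basal squamous cells, had at most 12 and 2 counts, so the line carries its label without these markers. Among markers of other cells, the leukocyte genes PTPRC and CD3E and the endothelial gene CDH5 were at 0 in all libraries, while the monocyte gene CD14 stood at 9.16 to 16.1 CPM. Of 6 fibroblast markers COL1A1 stood at 42.7 to 231 CPM and PDGFRB at 9.13 to 23.5 CPM, and COL1A2, DCN and LUM at 0.464 CPM or less. The summed fibroblast list was 52.1 CPM in control 2, 88.9 and 213 CPM in the other controls and 112 to 247 CPM in bile acid libraries, with a median log2 fold change of 0.80 over the 3 genes tested and 0 called. The summed level of the 10 markers of replicating cells was 3153 CPM in control 2, 3742 and 3970 CPM in the other controls and 3663 to 4349 CPM in bile acid libraries, and the part of either list in the values below was not tested.

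Per kilobase of exon the 10 genes fell into 3 tiers. The deposited FPKM, which divide counts by exonic length and library size, averaged 60.7 for APEX1, 54.35 for UNG and 50.8 for PARP1 over the 6 libraries (SD 3.55, 3.58 and 3.46), and neighbours in this tier overlapped. XRCC1 at 19.1 (SD 3.09), NTHL1 at 11.7 (SD 9.69) and MUTYH at 9.70 (SD 3.44) formed the middle tier. XRCC1 and NTHL1 overlapped only through NTHL1 in control 2, since NTHL1 was at most 9.88 in the other libraries and XRCC1 at least 15.3, while NTHL1 and MUTYH overlapped in both groups. POLB at 3.17 (SD 0.909), OGG1 at 3.15 (SD 0.391), NEIL1 at 2.09 (SD 0.384) and LIG3 at 2.04 (SD 0.496) were lowest and overlapped in turn. The tiers themselves did not overlap, since the lowest PARP1 library (45.96) lay above the highest library of the middle tier, NTHL1 in control 2 (31.1), and the lowest of the middle tier, NTHL1 in bile acid 1 (5.64), above the highest POLB library (4.56). Among the genes tested, the FPKM percentile was 96.8 for APEX1, 96.2 for UNG, 95.8 for PARP1 and 40.7 for LIG3. The exonic lengths merge the exons of all annotated transcripts, and the tiers depend on them. In CPM, the control and bile acid means were 27.3 and 33.9 for LIG3, 34.7 and 29.3 for OGG1, and 43.5 and 22.6 for NTHL1. Those of POLB and NEIL1 were 18.43 CPM or less.

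**Figure D1:**
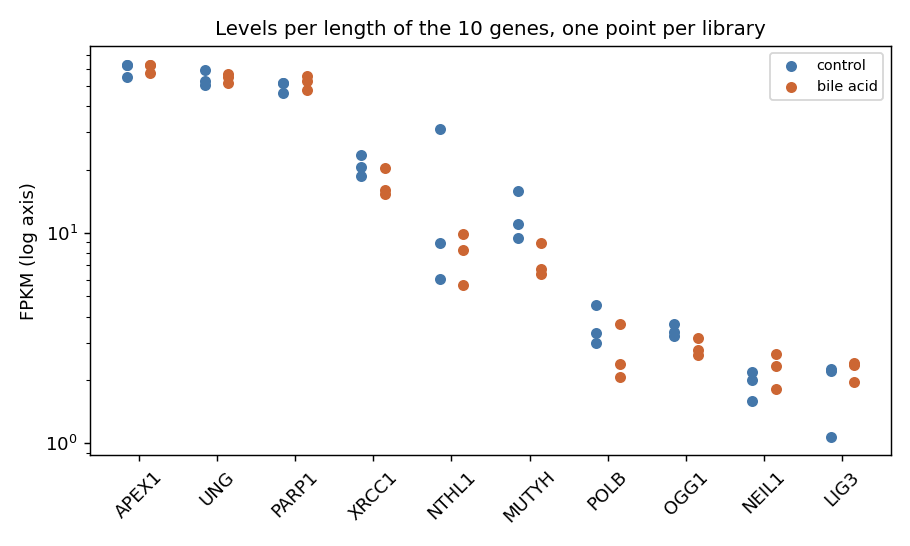
Deposited FPKM (log axis) of the 10 genes, ordered by their mean, with one point per control (blue) and bile acid (orange) library. APEX1, UNG and PARP1 lie between 45.96 and 63.1, and NTHL1 spreads from 5.64 to 31.1.

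Among the glycosylases, which decide what damage is seen, MUTYH was the one whose groups separated with all 6 libraries. Of all genes tested, 10.2% separated in either direction. MUTYH (ENSG00000132781, chromosome 1, 45329163 to 45340470, minus strand, GRCh38) measured 42.1, 72.3 and 49.3 CPM in control libraries 1 to 3 and 29.2, 41.3 and 30.7 CPM in bile acid libraries 1 to 3. All 3 bile acid libraries lay below all 3 controls, though bile acid 2 and control 1 differed by less than 1 CPM. The means were 54.6 ± 15.8 CPM and 33.7 ± 6.58 CPM (SD, n = 3). The log2 fold change was −0.69 (SE 0.26, 95% interval −1.31 to −0.08). In edgeR its p was 0.0308 unadjusted and 0.911 adjusted over all genes, and the authors' deposited table gives a log2 fold change of −0.68 with p = 0.0288 and an adjusted p of 0.977. Without control 2 the bile acid libraries still lay below both remaining controls, as for 12.1% of all genes. The log2 fold change was then −0.43 (SE 0.18, edgeR adjusted p = 0.588). With a trend on gene length removed from all 6 libraries the MUTYH groups overlapped, where 8.46% of all genes were without overlap.

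OGG1, which excises 8-oxoguanine itself (ENSG00000114026, chromosome 3, 9749944 to 9788219, plus strand), measured 32.3, 37.9 and 33.96 CPM in controls and 28.6, 32.5 and 26.9 CPM in bile acid libraries. Bile acid libraries 1 and 3 lay below every control, and bile acid 2 was just above control 1. Its log2 fold change was −0.24 (SE 0.18, 95% interval −0.66 to 0.17, edgeR adjusted p = 0.911), so a fall below 0.634 of the control level and a rise above 1.125-fold lie outside that interval. In FPKM, where libraries are scaled differently, control 1 stood at 3.24 and bile acid 2 at 3.16, and the groups did not overlap, as for 7.86% of the genes with any FPKM above 0 and 10.2% of those averaging at least 0.5.

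NTHL1, a glycosylase for oxidised pyrimidines (ENSG00000065057, chromosome 16, 2039815 to 2047866, minus strand), measured 24.8, 88.9 and 16.9 CPM in controls and 16.1, 28.2 and 23.6 CPM in bile acid libraries. Control 2 was 3 or more times every other library, and the remaining controls lay among the bile acid values. The log2 fold change of −0.94 (SE 0.60, edgeR adjusted p = 0.911) was the lowest of the 10 genes, and without control 2 it was 0.13 (SE 0.25, adjusted p = 0.944), a change of sign.

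NEIL1, which acts on oxidised pyrimidines and ring-opened purines (ENSG00000140398, chromosome 15, 75346955 to 75357114, plus strand), measured 17.2, 12.9 and 15.9 CPM in controls and 14.7, 21.7 and 18.9 CPM in bile acid libraries. The groups overlapped through bile acid 1, and the log2 fold change was 0.26 (SE 0.23, edgeR adjusted p = 0.911). UNG, which removes uracil from DNA (ENSG00000076248, chromosome 12, 109097574 to 109110992, plus strand), measured 147, 179 and 155 CPM in controls and 173, 167 and 155 CPM in bile acid libraries. Its groups overlapped fully, with control 2 the highest library, and the log2 fold change was 0.04 (SE 0.17, 95% interval −0.37 to 0.44). With control 2 left out and the remaining libraries rescaled, all bile acid libraries of UNG lay above both controls, bile acid 3 and control 3 being nearly level, and the log2 fold change was 0.14 (SE 0.13, edgeR adjusted p = 0.862).

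**Figure D2:**
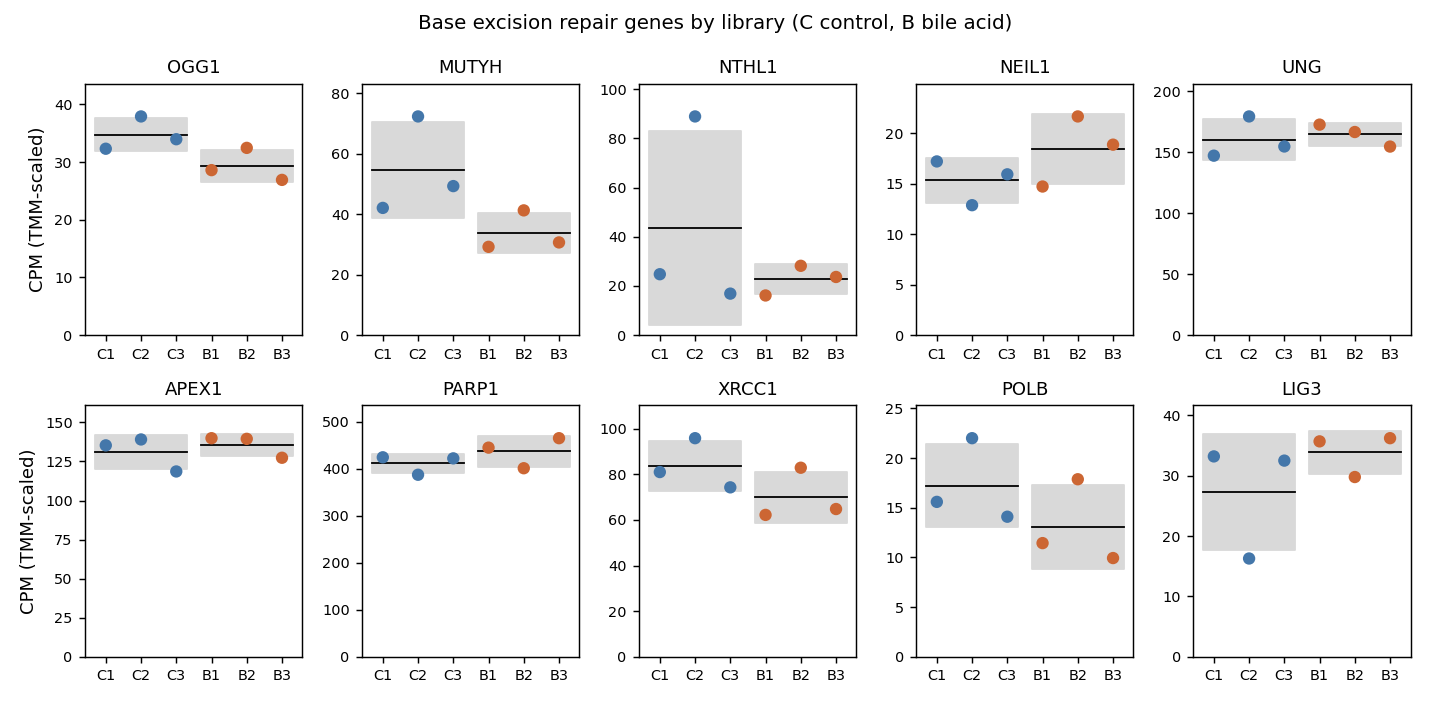
TMM-scaled CPM of each gene in control libraries C1 to C3 and bile acid libraries B1 to B3 (points), with the group mean (line) and 1 SD (grey band). The MUTYH groups separate, at 42.1 CPM or more in controls and 41.3 CPM or less after bile acid. Those of 10.2% of all genes separate in either direction. NTHL1 in C2 stands alone at 88.9 CPM.

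Of the steps after base removal, the abundant genes APEX1 and PARP1 had overlapping groups. APEX1, which nicks DNA at the empty site (ENSG00000100823, chromosome 14, 20455191 to 20457772, plus strand), measured 135, 139 and 119 CPM in controls and 139.9, 139 and 127 CPM in bile acid libraries. Its log2 fold change was 0.05 (SE 0.17, 95% interval −0.34 to 0.44, edgeR adjusted p = 0.965). PARP1 (ENSG00000143799, chromosome 1, 226360691 to 226408079, minus strand) measured 424, 387 and 422 CPM in controls and 445, 401 and 465 CPM in bile acid libraries. Bile acid libraries 1 and 3 lay above every control and bile acid 2 below controls 1 and 3, with a log2 fold change of 0.09 (SE 0.18, 95% interval −0.32 to 0.50). For APEX1, UNG and PARP1 the upper ends of the intervals correspond to 1.36-fold, 1.36-fold and 1.41-fold, so larger rises lie outside them.

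XRCC1, the scaffold that holds LIG3 and POLB at the break (ENSG00000073050, chromosome 19, 43543040 to 43580473, minus strand), measured 80.97, 95.8 and 74.3 CPM in controls and 62.2, 82.9 and 64.8 CPM in bile acid libraries. POLB, the gap-filling polymerase (ENSG00000070501, chromosome 8, 42338454 to 42371808, plus strand), measured 15.6, 22.01 and 14.1 CPM against 11.4, 17.9 and 9.94 CPM. In both genes bile acid libraries 1 and 3 lay below all controls while bile acid 2 lay among them. The log2 fold changes were −0.26 (SE 0.20) for XRCC1 and −0.40 (SE 0.30) for POLB (edgeR adjusted p = 0.911 for each). Without control 2 they were −0.14 (SE 0.15) and −0.17 (SE 0.25), and without bile acid 2 that of POLB was −0.67. LIG3, the sealing ligase (ENSG00000005156, chromosome 17, 34980494 to 35009743, plus strand), measured 33.2, 16.3 and 32.5 CPM in controls and 35.7, 29.8 and 36.2 CPM in bile acid libraries. Control 2 was the lowest library, and the log2 fold change of 0.31 (SE 0.29) became 0.06 (SE 0.16, edgeR adjusted p = 0.960) without it. Without that library the log2 fold change was 0.16 for NEIL1, 0.105 for APEX1 and 0.06 for PARP1.

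**Figure D3:**
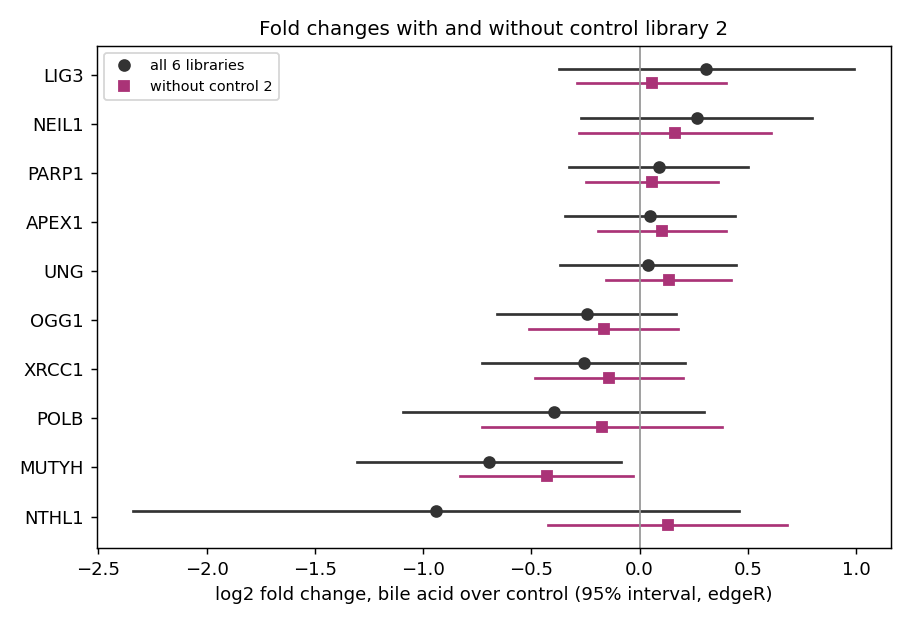
log2 fold changes of bile acid over control in edgeR with their 95% intervals, for all 6 libraries (dark circles) and without control 2 (purple squares). The interval of MUTYH lies below 0 in both, from −1.31 to −0.08 and from −0.83 to −0.03, and that of each other gene spans 0. The intervals are not adjusted for the number of genes, and both fits share libraries. The unadjusted edgeR p was under 0.05 for 3.31% of all genes with 6 libraries and for 7.98% without control 2.

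Control 2 held the extreme value for most of these genes. It was the highest or the lowest of the 6 libraries for 9 of the 10 genes, all except APEX1, and for 13885 of the 17743 genes tested. It lay above both other controls for 7 of the 10 genes and below both for NEIL1, PARP1 and LIG3. The log2 CPM of control 2 minus the mean of controls 1 and 3 was 2.12 for NTHL1, 0.67 for MUTYH and 0.57 for POLB, and −1.01 for LIG3, whose exonic length of 12919 bases is the longest of the 10. Across the 10 genes this difference had a Spearman rho of −0.56 with exonic length, and across all genes tested one of −0.33. These are descriptions across genes of a single library, and genes are not independent replicates. Without control 2 edgeR again called 0 of the 10 genes (background 0.00547%) and DESeq2 called 0 (background 1%, of which 0.924% higher and 0.0776% lower). In edgeR MUTYH alone of the 10 was under an unadjusted p of 0.05, where 7.98% of all genes were. The median log2 fold change then turned from −0.10 to 0.06, and 2 of the 10 genes did not overlap between groups, MUTYH below and UNG above, where 24.7% of all genes did not, 12.1% below and 12.6% above.

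**Figure D4:**
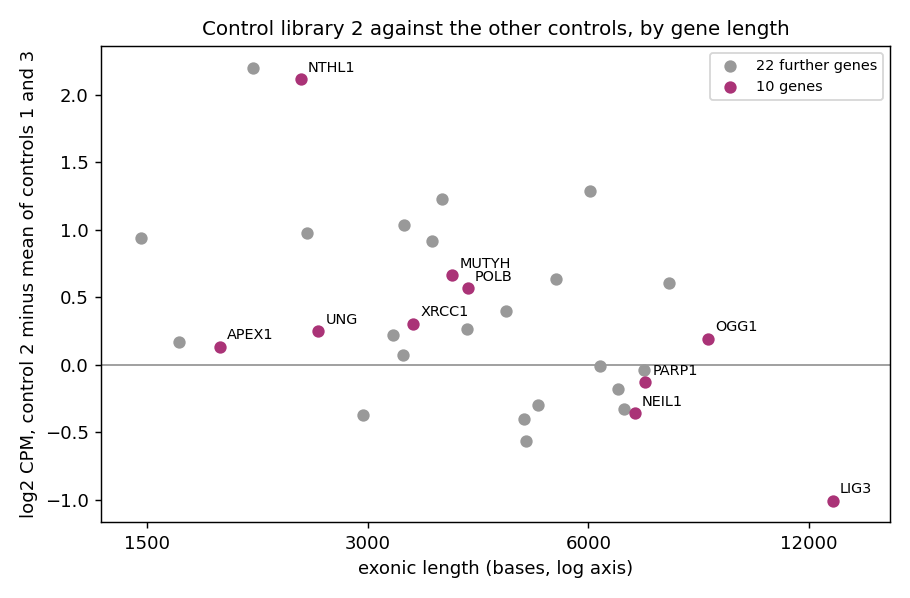
log2 CPM of control 2 minus the mean of controls 1 and 3 against exonic length (log axis) for the 10 genes (purple, named) and 22 further base excision repair genes (grey). NTHL1, 2430 bases long, lies at 2.12 and LIG3, 12919 bases long, at −1.01.

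Of the 10 genes 6 followed opposed patterns over the 6 libraries. OGG1, MUTYH, XRCC1 and POLB were low in bile acid 1 and 3, nearer the controls in bile acid 2, and highest in control 2, while PARP1 and LIG3 showed the reverse. Pearson's r of log2 CPM was 0.97 between OGG1 and MUTYH and 0.97 between XRCC1 and POLB, and −0.99 between PARP1 and POLB. Without control 2 these values were 0.95, 0.94 and −0.98. Of the 45 pairs 8 had an r above 0.8 and 9 an r below −0.8, and 7 and 6 did so without control 2. The share over pairs of all genes was not computed, so these counts have no background and are not particular to the pathway. Over all genes tested the first principal component, on which control 2 stood apart, held 73.1% of the variance. NEIL1, UNG and APEX1 had no r beyond 0.8 in either direction with any of the others over the 6 libraries, and the r of NTHL1 with LIG3 went from −0.95 to −0.47 without control 2. The points share their libraries, so these values are given as descriptions. Bile acid 2 shared the direction of control 2 for the members of this pattern. Its log2 CPM exceeded the mean of bile acid 1 and 3 by 0.74 for POLB, 0.46 for MUTYH, 0.38 for XRCC1 and 0.23 for OGG1, and that of LIG3 differed by −0.27. This likeness was not limited to these genes. Over all genes tested bile acid 2 correlated best with control 2 (Pearson's r of log2 CPM 0.928, against 0.890 to 0.907 for the other libraries). When bile acid 2 was left out, 6 of the 10 genes did not overlap between groups, with OGG1, MUTYH, XRCC1 and POLB below and PARP1 and LIG3 above the controls. Of all genes 26.3% did not overlap in that comparison, 12.7% below and 13.6% above, and edgeR called 0 of the 10. These 6 genes were grouped above partly by their position in bile acid 2, so their separation without it restates the pattern. They also varied together, so they are not 6 separate counts. Leaving out control 1, control 3, bile acid 1 or bile acid 3 instead gave 2, 1, 2 and 2 genes without overlap, where 20.4%, 20%, 15.2% and 13.4% of all genes had none. With a trend on gene length removed from all 6 libraries 0 of the 10 genes were without overlap (8.46% of all genes), and on reads recovered from the deposited normalized counts 2 were (9.97%).

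**Figure D5:**
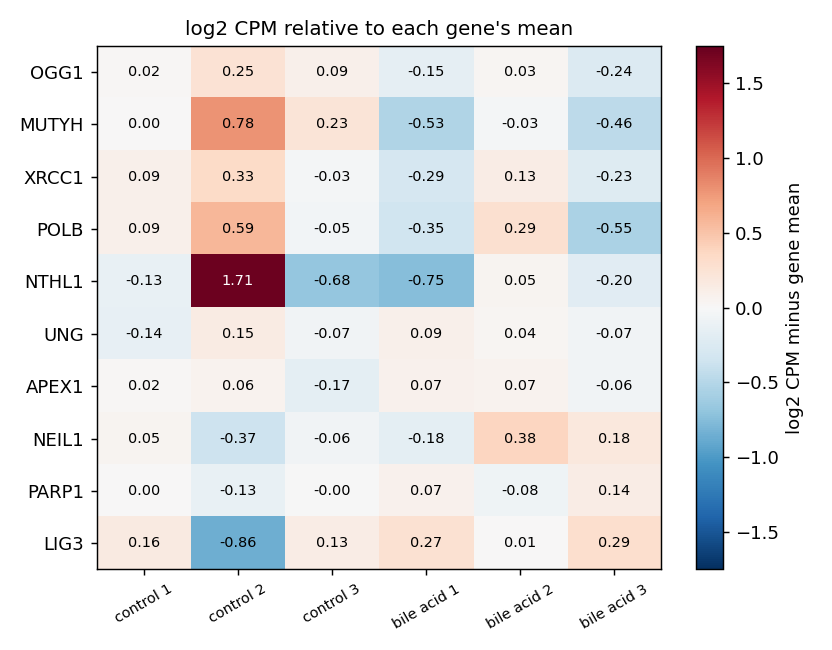
log2 CPM of each gene minus its mean over the 6 libraries, from blue (low) to red (high). OGG1, MUTYH, XRCC1 and POLB are negative in bile acid 1 and 3 and positive in control 2, and PARP1 and LIG3 have the opposite signs.

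The sequences just upstream of MUTYH and OGG1, which followed each other, and of PARP1 and LIG3, which ran opposite, are shown because these genes form the opposed patterns. RefSeq promoters (GRCh38.p14) matched 9 of the 10 genes, all except POLB. Each sequence below is the part of the 250 bases before a RefSeq start that lies outside annotated untranslated exons, written 5′ to 3′ on the gene's strand, and MUTYH is given at its outermost start. Capitals mark the GC box GGGCGG and the CCAAT box on either strand, elements common in promoters of housekeeping genes, which do not overlap each other here.
MUTYH: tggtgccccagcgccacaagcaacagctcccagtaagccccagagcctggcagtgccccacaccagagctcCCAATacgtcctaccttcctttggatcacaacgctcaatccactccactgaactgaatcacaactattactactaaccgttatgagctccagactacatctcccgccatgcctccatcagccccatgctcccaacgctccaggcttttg
OGG1: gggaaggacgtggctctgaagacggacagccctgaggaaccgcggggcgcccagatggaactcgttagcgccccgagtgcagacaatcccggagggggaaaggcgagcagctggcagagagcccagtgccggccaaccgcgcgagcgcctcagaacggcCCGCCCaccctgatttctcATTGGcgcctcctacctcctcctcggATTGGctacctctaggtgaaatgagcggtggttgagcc
PARP1: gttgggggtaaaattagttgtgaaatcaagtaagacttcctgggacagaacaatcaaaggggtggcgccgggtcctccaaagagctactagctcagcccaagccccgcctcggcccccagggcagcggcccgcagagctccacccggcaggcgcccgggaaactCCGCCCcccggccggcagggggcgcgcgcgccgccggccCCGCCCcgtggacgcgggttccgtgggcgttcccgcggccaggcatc
LIG3: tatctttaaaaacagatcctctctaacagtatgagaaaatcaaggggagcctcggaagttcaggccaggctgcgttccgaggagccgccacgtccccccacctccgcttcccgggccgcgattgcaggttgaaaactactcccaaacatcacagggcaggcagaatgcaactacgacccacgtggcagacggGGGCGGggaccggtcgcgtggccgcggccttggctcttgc
They lie at chr1:45340471-45340690 on the minus strand, chr3:9749702-9749943 on the plus strand, chr1:226408094-226408343 on the minus strand and chr17:34980262-34980493 on the plus strand. The OGG1 stretch held 1 GC box and 2 CCAAT boxes, that of MUTYH 1 CCAAT box, that of PARP1 2 GC boxes and that of LIG3 1 GC box. Over all 35116 RefSeq windows of 250 bases, 42.6% held a GC box and 32% a CCAAT box. Counting every start of the 9 matched genes, 8 genes held a GC box in a window and 6 a CCAAT box. Those 6 were APEX1, MUTYH, NEIL1, OGG1, UNG and XRCC1, of which APEX1, NEIL1 and UNG belong to neither of the opposed patterns. No window of the 9 matched genes held TATAAA (10.7% of all windows) or TTTCGCGC, an E2F-type element (0.439%). TGACNNNGC, the core that NRF2 binds, was in a window of MUTYH at another start and in that of NTHL1, and in 10.9% of all windows. CpG pairs numbered 26 in the PARP1 stretch, 20 in OGG1, 18 in LIG3 and 6 in MUTYH at its outermost start. The full windows of 250 bases at the inner MUTYH starts held 28 and 34 CpG pairs and a GC box each, so the count for MUTYH depends on the start taken. These letters are descriptions of the reference, and no measurement here bears on binding.

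Of the 10 genes 7 share exonic bases with a neighbour, which lies on the opposite strand in each case but for one neighbour of XRCC1. No source used here states a strand setting for the counting, so reads in these stretches cannot be told apart. GENCODE 29, whose coordinates and exonic lengths equal those of the count table for all 10 genes, gives a shared part of 30.5% of the exonic bases of LIG3 and NEIL1, 29% of OGG1, 24% of XRCC1, 16.5% of NTHL1, 14.1% of MUTYH and 2.86% of APEX1, and 0 for UNG, PARP1 and POLB. The partner of MUTYH is TOE1, a nuclear deadenylase, which measured 27.3 ± 2.54 CPM in controls and 27.7 ± 2.96 CPM in bile acid libraries (SD, n = 3). The log2 fold change of TOE1 was 0.02, against −0.69 for MUTYH. The partner of NTHL1 is TSC2, a brake on the mTOR kinase, which was lowest in control 2, at 67.6 CPM against 98.8 to 129 CPM in the other 5 libraries, where NTHL1 was highest. Of the partners of OGG1, TADA3 was highest in control 2 as OGG1 was, at 172 CPM against 92.2 to 113 CPM, and CAMK1 lowest there, at 8.85 CPM against 9.91 to 13.3 CPM. MAN2C1, the main partner of NEIL1, was lowest in control 2 as NEIL1 was, at 46.4 CPM against 83.8 to 101 CPM. LIG3 shares exons with RFFL, which was lowest in control 2 as LIG3 was, at 19.9 CPM, and averaged 28.1 ± 7.35 CPM in controls and 26.6 ± 3.05 CPM in bile acid libraries (SD, n = 3). The neighbours of XRCC1 had 0 counts in all libraries, which does not show that the shared bases carried none of their reads.

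The rest of the pathway was read from 22 further genes, all of which were tested. In edgeR 0 of the 22 passed in either direction (background 0%), 0 had an unadjusted p under 0.05 (3.31% of all genes), and DESeq2 called 0 (0.118% of all genes). The median log2 fold change was −0.09, with 8 genes positive and 14 negative, against −0.01 over all genes tested. Without control 2 the balance turned, with 13 positive and 9 negative and a median of 0.01, and 2 genes had an unadjusted p under 0.05 in edgeR against 7.98% of all genes. By role, 4 of 6 further glycosylases and 4 of 5 end-processing genes were negative, and the 6 genes of long-patch repair and its polymerases were split 3 and 3, from −0.34 to 0.20. The 2 genes of ADP-ribose turnover were split, the chromatin gene HMGB1 was at 0.05 and both nucleotide-pool genes were negative. Without control 2, 4 of the 6 glycosylases, 4 of the 6 long-patch genes and both nucleotide-pool genes were positive, and 4 of the 5 end-processing genes were still negative. The lowest fold changes belonged to NUDT1, which clears oxidised nucleotides from the pool, at −0.88 (SE 0.59), APTX, which removes AMP left by failed ligation, at −0.75 (SE 0.38), and SMUG1, another uracil glycosylase, at −0.64 (SE 0.39). The adjusted p was 0.911 in edgeR for each of these.

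All 3 of the lowest genes were at their highest in control 2. NUDT1 measured 42.2, 187 and 38.9 CPM in controls and 44.6, 53.1 and 47.4 CPM in bile acid libraries, so that without control 2 every bile acid library lay above both controls and the log2 fold change was 0.26 (SE 0.15, edgeR adjusted p = 0.713). APTX measured 40.97, 100.01 and 44.4 CPM against 29.1, 45.9 and 35.1 CPM, and SMUG1 26.5, 65.2 and 26.7 CPM against 22.4, 31.4 and 22.1 CPM. Without control 2 their log2 fold changes were −0.21 (SE 0.19) and −0.06 (SE 0.19). The highest fold changes were those of TDG, which removes thymine mispaired with guanine, at 0.28 (SE 0.27), POLD1, the catalytic subunit of polymerase delta, at 0.20 (SE 0.22), and NEIL3, a glycosylase for oxidised bases, at 0.11 (SE 0.19). Without control 2 these were 0.17 for TDG, 0.04 for POLD1 and 0.0075 for NEIL3, and without bile acid 1 that of TDG was 0.04.

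Among 11384 other protein-coding genes averaging 5 CPM or more, those whose log2 CPM followed the mean centred level of the 10 genes most closely over the 6 libraries were CLEC11A (Pearson's r = 0.997), STK16 (0.989), MPST (0.988), SULT1A1 (0.986) and DNAJC4 (0.985). Without control 2 their r with the same profile lay between 0.961 and 0.998. They were picked as the closest of many genes over few libraries, and the values are descriptions.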

How the data were processed

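The 6 Het1A RNA libraries (3 per group) were read in pairs of 150 bp, per the labels' protocols. GRCh38, featureCounts, HISAT2 2.0.5 and DESeq2 appear without roles, per the submitters' processing notes. The annotation and the strand setting are not given in the sources used here. The deposited count table holds whole reads per gene. The deposited FPKM are scaled by gene length and library size by the authors. The authors' deposited normalized counts are a signal equal to whole reads over 1 size factor per library. Reads recovered from it were whole for 100% of values within 0.01, and edgeR called 0 of 17959 genes on them. Their totals exceed the count table by 3.84% to 4.20%. Per the file headers, the authors' deposited comparison gives log2 fold changes, a test score, p-values and adjusted p-values in the layout of DESeq2.

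The main test was edgeR 4.0.16 (R 4.3.3), quasi-likelihood, with TMM factors, filterByExpr and Benjamini-Hochberg adjustment over 17743 genes at 0.05, without covariates. The code was run on simulated counts with the same dispersion for every gene and no deviating library. That run does not show how the test behaves on the present libraries. Standard errors are the log2 fold change over the root of F. Centred values are log2 CPM with a prior count of 2. Alternatives used DESeq2 1.42.0, limma 3.58.1, other scalings and filters, log2(FPKM + 1) and log2(FPKM + 0.1), a replicate block, removal of the length trend by lowess of span 0.3, and each library left out. The members and lists were chosen with earlier results of these data known. All 10 members are named. Of the 22 further genes the rule named called genes, otherwise the 3 highest and 3 lowest fold changes, and it named the 5 protein-coding genes most like the members' mean profile. FEN1, DUT, NEIL2, PCNA, HMGB1 and the exon-sharing neighbours were picked after their values were seen.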

Additional observations from a re-analysis of the deposited data

How the results depend on the processing

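In 20 other ways of processing and 2 added after seeing the data (edgeR on recovered reads, and DESeq2 without control 2) 0 of the 10 genes and 0 of the 22 further genes were called. Over all genes, DESeq2 called 0.118%, edgeR without control 2 called 0.00547% and DESeq2 without control 2 called 1%. Every other alternative called 0 of all genes, so the members could not differ from the background there. Of 220 fold changes of the 10 genes under these alternatives 214 kept their sign, and MUTYH was negative in all 22, from −0.85 to −0.43, with edgeR, limma or DESeq2 adjusted p from 0.533 to 1. Signs turned without control 2 for NTHL1 (0.131 in edgeR, 0.132 in DESeq2) and NUDT1 (0.265 in both), and with 1 library left out their values ranged from −1.32 to 0.131 and from −1.23 to 0.265. Signs also turned for UNG without control 1 (range −0.0151 to 0.135), for APEX1 without control 3 (range −0.0107 to 0.105), and for PARP1 with the length trend removed (−0.0677, and −0.044 with the replicate block as well). The cause was not tested. The median of the 10 genes was −0.10, ranged from −0.145 to 0.056 with 1 library left out, and was 0.0565 in DESeq2 without control 2. The number of the 10 genes whose groups did not overlap, 1 with all libraries, was 0 with the length trend removed (8.46% of all genes), 2 in FPKM under each of its 3 settings (7.86% to 10.2%), 2 on recovered reads (9.97%), and 1 to 6 with 1 library left out (13.4% to 26.3%). The deviations of same-numbered libraries correlated with r of 0.307, 0.382 and 0.0979. Controls 1 and 2 correlated best with their own number and control 3 with bile acid 1 (0.189), so a pairing was neither shown nor assumed. With the replicate block the median was −0.10 and 0 genes were called. Each of the 10 genes had at least 230 counts in each library, against a floor of 3.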

Other observations

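Without control 2, 6 of the 22 further base excision repair genes had every bile acid library above both remaining controls, where 12.6% of all genes did. They were FEN1, which trims displaced flaps, the sliding clamp PCNA, HMGB1, a chromatin protein that aids the pathway, the nucleotide-pool enzymes NUDT1 and DUT, and the glycosylase NEIL2, all picked out after their values were seen. FEN1 measured 156 and 196 CPM in controls 1 and 3 and 278, 218 and 231 CPM in bile acid libraries 1 to 3, with 345 CPM in control 2. Its log2 fold change without control 2 was 0.47 (SE 0.16) with an adjusted p of 0.502 in edgeR and 0.245 in DESeq2. DUT, which keeps uracil out of DNA, measured 87.8 and 102 CPM in controls 1 and 3, 179 CPM in control 2 and 112, 127 and 115 CPM after bile acid, with a log2 fold change of 0.32 (SE 0.14, edgeR adjusted p = 0.596) without that library. All 6 genes were at their highest in control 2, and with that library their log2 fold changes lay between −0.88 for NUDT1 and 0.06 for FEN1.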
